A study of Homo sapiens with 5 samples.

Results

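The 4 human HOX gene clusters were examined for SMAD2 binding in T47D, an estrogen receptor-positive human line of the luminal breast cancer type. Members were all peak summits listed inside 4 fixed windows of the hg19 genome. The windows were chromosome 7 from 27100001 to 27270000 for HOXA (170 kb), chromosome 17 from 46590001 to 46820000 for HOXB (230 kb), chromosome 12 from 54320001 to 54460000 for HOXC (140 kb) and chromosome 2 from 176930001 to 177070000 for HOXD (140 kb). A summit is the position of highest enrichment that the authors' peak caller gave for a peak. The windows held 269 of the 233945 summits in the 4 lists together, with 148 in HOXC, 94 in HOXB, 22 in HOXA and 5 in HOXD. Activin A signals through SMAD2, as other TGF-β family ligands do. Cells of all 4 libraries had received it at 50 ng/ml for 1.5 h. In 2 libraries (activin replicates 1 and 2) this was the only agent, and in the other 2 libraries (palbociclib replicates 1 and 2) palbociclib, an inhibitor of the kinases CDK4 and CDK6, was also given at 1 µM for 24 h. Input DNA of T47D was the control for the peak calling, and no treatment is recorded for it here. All values come from 1 cell line, and activin-free cells were not analysed here. Summit positions carry no expression values, so the identity of the line was not checked against marker genes.

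HOX genes encode homeodomain transcription factors that set identity along the body axis. In mammals they lie in clusters that arose by duplication, and their order along the chromosome follows the order in which they are used from head to tail. Clusters that a cell does not use are commonly held silent under broad Polycomb-marked chromatin, and luminal breast cells use some HOX genes and not others. SMAD2 is a receptor-activated SMAD: activin receptors phosphorylate it, it joins SMAD4, and the complex enters the nucleus and binds DNA largely with partner factors. The RefSeq table of GRCh38.p14 held all 39 HOX genes, 11 in HOXA, 10 in HOXB, 9 in HOXC and 9 in HOXD. Along rising coordinates HOXA ended in HOXA13, HOXB ran from HOXB1 to HOXB13 and HOXD ran from HOXD13 to HOXD1. HOXC began with HOXC13, and HOXC4, HOXC5 and HOXC6 lay at its other end, in an order that is not given here. That gene order is used below only to say which end of a cluster is meant. Summits were not assigned to single genes, because no annotation on hg19 was used here.

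A HOX promoter from each cluster is printed to show the bases before a start site and where letters known to bind SMAD proteins fall in them. Paralogue group 4 was taken where the RefSeq promoter table held it, and HOXB1 for HOXB. Each run gives the 250 bases before the start site on GRCh38.p14, 5′ to 3′ on the gene's strand, with the SMAD box AGAC or its reverse complement GTCT and the GC-rich SMAD motif GGCGCC in capitals. HOXA4 lies at chr7:27130758-27131007 (minus strand), HOXB1 at chr17:48531012-48531261 (minus strand), HOXC4 at chr12:54016638-54016887 (plus strand; HOXC5 shares this start) and HOXD4 at chr2:176151300-176151549 (plus strand). These are GRCh38 positions and cannot be set against the hg19 summits.
HOXA4: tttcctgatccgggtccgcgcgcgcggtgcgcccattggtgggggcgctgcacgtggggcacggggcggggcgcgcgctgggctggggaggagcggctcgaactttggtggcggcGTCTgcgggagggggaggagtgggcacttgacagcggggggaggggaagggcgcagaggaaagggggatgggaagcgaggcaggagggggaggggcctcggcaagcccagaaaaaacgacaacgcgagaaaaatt
HOXB1: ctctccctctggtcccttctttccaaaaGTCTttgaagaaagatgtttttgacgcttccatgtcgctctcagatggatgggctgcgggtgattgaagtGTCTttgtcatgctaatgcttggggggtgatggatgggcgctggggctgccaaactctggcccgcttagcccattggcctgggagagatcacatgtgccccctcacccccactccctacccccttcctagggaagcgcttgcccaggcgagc
HOXC4: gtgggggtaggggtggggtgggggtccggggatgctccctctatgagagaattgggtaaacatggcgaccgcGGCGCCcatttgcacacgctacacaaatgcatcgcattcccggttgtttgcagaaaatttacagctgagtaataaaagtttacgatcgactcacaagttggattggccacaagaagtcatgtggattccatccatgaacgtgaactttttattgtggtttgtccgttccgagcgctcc
HOXD4: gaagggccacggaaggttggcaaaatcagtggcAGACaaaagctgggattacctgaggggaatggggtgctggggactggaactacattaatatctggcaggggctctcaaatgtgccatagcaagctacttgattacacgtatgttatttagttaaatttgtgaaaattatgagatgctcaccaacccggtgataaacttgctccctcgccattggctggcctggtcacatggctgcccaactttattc
The SMAD box occurred 1 time before HOXA4, 2 times before HOXB1, 0 times before HOXC4 and 1 time before HOXD4, and GGCGCC only before HOXC4 among these. The table held 26 distinct promoters of 20 HOX genes (16 distinct in HOXA, 1 in HOXB, 1 in HOXC and 8 in HOXD). The SMAD box on either strand stood in 20 of these 26 (76.9%) and in 77.5% of all 34788 distinct promoters of that length. GGCGCC stood in 7 of 26 (26.9%) and in 16.4% of all promoters. The palindrome GTCTAGAC, which joins both orientations of the SMAD box, stood in 0 of 26 and in 0.178% of all. Other motifs were also searched on both strands. The AP-1 motif TGACTCA stood in 0 of 26 and in 4.21% of all promoters, the forkhead motif TGTTTAC in 1 of 26 and in 2.98% of all, and the motif of the zinc-finger GATA factors, spelled AGATAA, in 2 of 26 and in 9.21% of all. HOXB and HOXC had a single distinct promoter each in this table, so the clusters could not be compared by motif.

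Among the 4 clusters, SMAD2 summits were densest in HOXC, followed by HOXB, HOXA and HOXD, in the same order in all 4 libraries. With activin alone, replicates 1 and 2 held 36 and 39 summits in HOXC, and with palbociclib they held 36 and 37. HOXB held 19 and 22, and then 30 and 23. HOXA held 5 and 6, and then 5 and 6, and HOXD held 2 and 1, and then 1 and 1. No library of 1 cluster reached into the range of the next cluster. Per 100 kb this came to 26.4 summits in HOXC, 10.2 in HOXB, 3.24 in HOXA and 0.893 in HOXD (mean of 4 libraries). The whole lists averaged 1.70 and 1.79 summits per 100 kb with activin and 2.08 and 2.15 with palbociclib, over the distance from each chromosome's start to its last summit. HOXC was therefore 12.3 to 15.6 times as dense as its own list, HOXB 4.65 to 6.28 times, HOXA 1.42 to 1.97 times and HOXD 0.332 to 0.841 times. Between the clusters themselves, HOXC was 29.6 times as dense as HOXD by the means, with 18 to 39 times in single libraries.

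**Figure D1:**
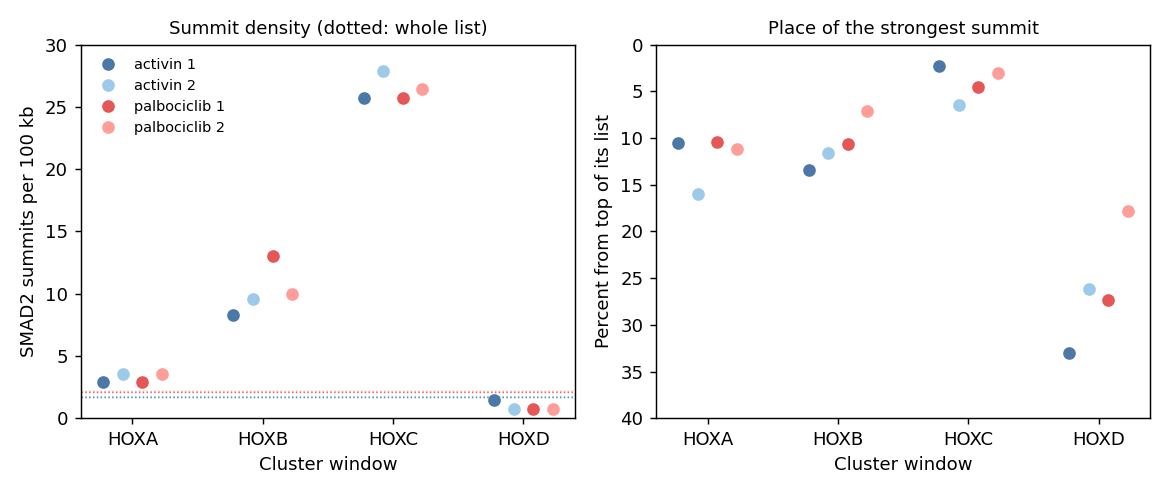
Left: SMAD2 summits per 100 kb in each HOX window, 1 point per library, with a dotted line at the density of each whole list. Right: place of the strongest summit of each window, as its rank in percent of its own list (0 is the strongest summit of the list). This place depends in part on how many summits the window held. The HOXC points lie between 25.7 and 27.9 summits per 100 kb and the HOXD points between 0.714 and 1.43, below the density of their lists.

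The genome was also cut into windows of each cluster's own length, from the start of every chromosome, to rank the clusters. Among 21681 windows of 140 kb, HOXC ranked 29 in both activin lists, then 64 and 87 after palbociclib, where rank 1 is the window with the most summits. By its mean count over the libraries it ranked 47. Among 13201 windows of 230 kb, HOXB ranked 473 and 410 with activin and 261 and 549 with palbociclib. Among 17852 windows of 170 kb, HOXA ranked 2849 and 2448, and then 3528 and 3042. HOXD ranked 5861 and 7975, and then 9023 and 8777, close to the typical window of 140 kb, whose median was 1 summit in every list. As percentiles of the windows (ties counted as 50%), the means were 99.7 ± 0.1 for HOXC, 96.7 ± 1.0 for HOXB, 81.7 ± 2.7 for HOXA and 55.7 ± 8.4 for HOXD (SD, n = 4 libraries of both treatments). Between 41.25% and 45.0% of the 140-kb windows held no summit of a given list, so HOXD, with 1 or 2 summits, was not among the emptiest windows. Among windows with a summit of any list, the mean percentile was 99.6 for HOXC, 95.75 for HOXB, 74.8 for HOXA and 35.5 for HOXD. As a share of all summits, HOXC took 0.0699% of the activin replicate 1 list (95% exact interval 0.0489 to 0.0967) and 0.0567% of the palbociclib replicate 2 list (0.0400 to 0.0782). HOXD took 0.00388% (0.00047 to 0.0140) and 0.00153% (3.88e-05 to 0.00854) of the same lists. These intervals cover counting error only.

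Rank within the lists followed the order of density only in part. The strongest of many summits tends to stand nearer the top than the strongest of few, so its place depends in part on the count. The counts differed between the clusters, and this was not corrected for. The strongest HOXC summit scored 138 and 85.4 with activin and 145 and 157 with palbociclib (the peak caller's score, read here as −log10 q). It held ranks 1179, 3477, 2846 and 2006. It therefore stood 2.29% to 6.41% from the top of its list. The strongest HOXB summit stood 7.12% to 13.5% from the top, with scores of 51.2, 55.0, 78.1 and 98.3. In HOXA it stood 10.4% to 16.0% from the top, with scores of 62, 39.4, 80.5 and 68.1, and in HOXD 17.8% to 33.0%, with scores of 17.02, 20.6, 22.8 and 38.3. Scores of different lists are given side by side and not compared. In HOXC 3 to 4 summits per library lay in the strongest 10% of their list, or 8.33% to 10.8% of the HOXC summits, and 37.8% to 46.2% lay in the weaker 50%. The 73 others (49.3% of 148) lay between these cuts. In HOXB 0 or 1 summit per library reached the strongest 10%, and 52.2% to 63.3% lay in the weaker 50%. HOXA and HOXD had 0 summits in the strongest 10% of any list. In both replicate 1 lists the strongest HOXA summit stood nearer the top than the strongest HOXB summit, and in both replicate 2 lists the reverse held. The median summit of a library stood on average 42.2% from the top in HOXC, 57.0% in HOXB and 43.0% in HOXA. In HOXD, with 1 or 2 summits per library, it stood at 31.1%. HOXC summits were thus many, and their share in the strongest 10% was close to the 10% that every list holds there by construction.

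**Figure D2:**
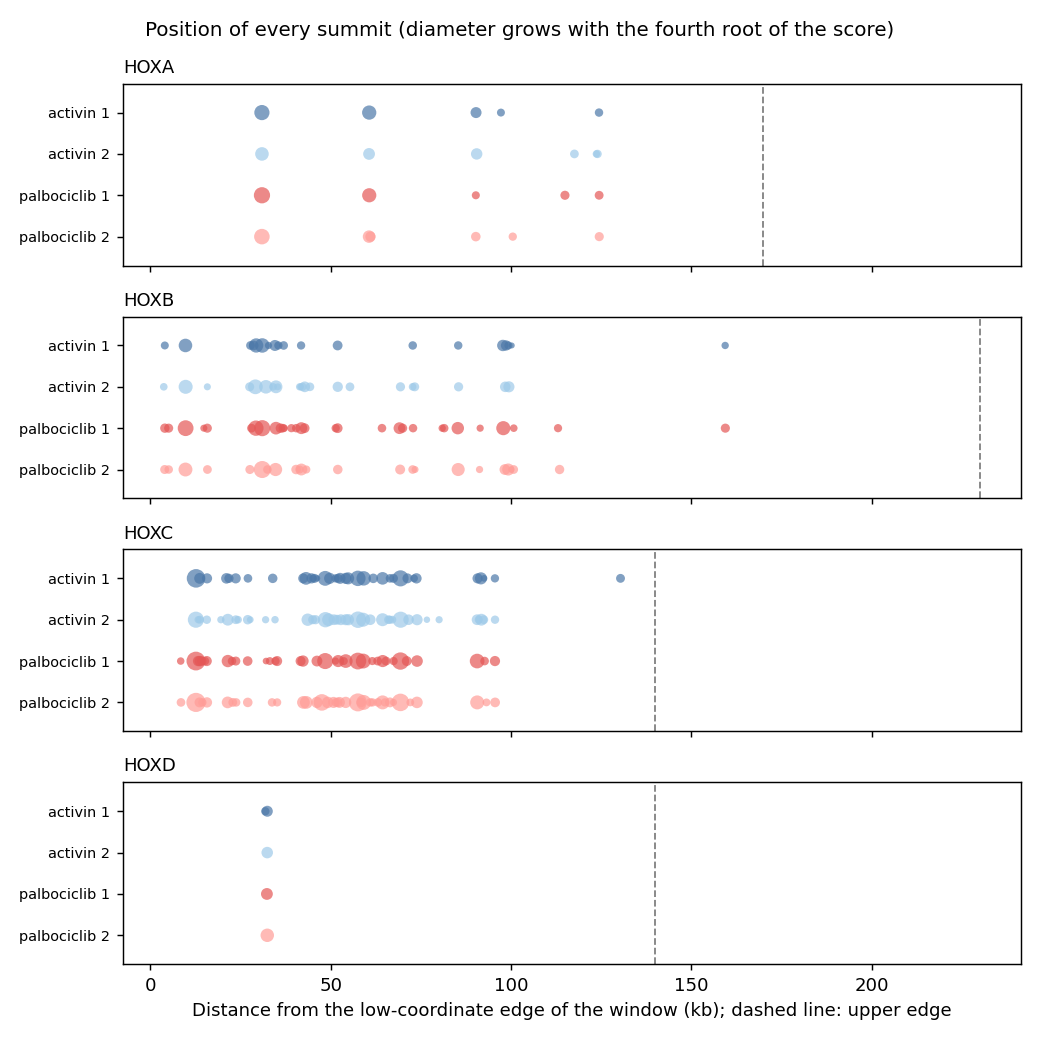
Every summit of the 4 libraries along the HOX windows, in kb from the low-coordinate edge, with larger points for higher scores and a dashed line at the upper edge. The HOXC regions with the best ranks in all libraries lie at 12.6 and 69.4 kb, HOXD shows summits only near 32 kb, and HOXB shows 2 summits beyond 115 kb.

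HOXC carried its summits in a broad block at the HOXC13 end and in the middle of the window. The low-coordinate 70 kb held 121 of the 148 summits (81.8%), with 28 and 30 of them after activin and 31 and 32 after palbociclib. The upper 70 kb held 8 and 9 with activin and 5 and 5 with palbociclib. The densest 10 kb lay from 50 to 60 kb into the window (chromosome 12 at 54370001 to 54380000) and held 7, 7, 6 and 8 summits. Of 303341 such bins over all chromosomes, 273 held more than its total of 28. This bin was picked as the densest of the 14 HOXC bins, which by itself favours a high place. A stretch of 34.8 kb without a summit in any list ran from 95.6 to 130 kb, towards the HOXC4 end. Of the 14 bins, 3 were empty in all lists (21.4%), against 84.5% of bins in the series.

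The regions of HOXC that were found in every library included its strongest. The first lay at 54332640 to 54332682 on chromosome 12, 12.6 kb from the window's edge and on the HOXC13 side, with scores of 138, 79.2, 145 and 157 (2.29%, 7.31%, 4.52% and 3.08% from the top). The next lay at 54389364 to 54389425, with scores of 78.6, 78.7, 105 and 110 (5.998% to 7.54% from the top). The region at 54377552 to 54377586 scored 66.1, 85.4, 92.6 and 121 (5.09% to 9.72%). Its neighbour at 54379022 to 54379169 scored 50.9, 44.8, 56.9 and 57.7 (12.8% to 14.4%), and the region at 54384403 to 54384438 scored 29.4, 33.0, 25.5 and 44.6 (15.9% to 25.4%). In these 5 regions the places of the activin and palbociclib libraries overlapped. A further HOXC region was found in 3 libraries: activin replicates 1 and 2 and palbociclib replicate 1 listed it at 54368498 to 54368561 with scores of 56.9, 63.8 and 77.1. Palbociclib replicate 2 had no summit there, and listed 1 summit on either side, at 54367574 with a score of 87.3 and at 54369174 with 20.45. The lists give no peak widths, so whether these summits belong to the same peak was not tested.

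HOXB carried its summits in the low-coordinate part of the window, on the side of HOXB1. They were spread along it, and every 10-kb bin from 0 to 120 kb held a summit of at least 1 list. The low-coordinate 115 kb held 92 of 94 summits (97.9%), and the upper 115 kb held 1, 0, 1 and 0. The 2 longest stretches with no summit in any list followed each other, 45.9 kb from 113 to 159 kb and 70.5 kb from 159 kb to the window's end. HOXB13, the last gene of the cluster, is known to be separated from the others by a long gap. Whether the empty stretches match that gap was not tested, since summits were not assigned to genes. The densest bin of HOXB, from 30 to 40 kb (46620001 to 46630000), held 5, 4, 6 and 3 summits. The HOXB region with the best ranks in all libraries lay at 46599746 to 46599796, with scores of 39.4, 45.1, 72.7 and 43.4 (11.5% to 17.2% from the top). The region at 46624556 to 46624847 scored 17.15, 32.0, 30.1 and 35.2, and the region at 46641940 to 46641988 scored 10.9, 13.0, 10.75 and 9.49. The strongest HOXB summits of single lists were not shared by all. At 46621042 to 46621044, activin replicate 1 and both palbociclib libraries fell within 3 bp, with scores of 51.2, 78.1 and 98.3, and activin replicate 2 had its nearest summit at 46622060 with 39.4. At 46619141 to 46619352, both activin libraries and palbociclib replicate 1 scored 48.9, 55.0 and 64.8, and palbociclib replicate 2 had none.

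**Figure D3:**
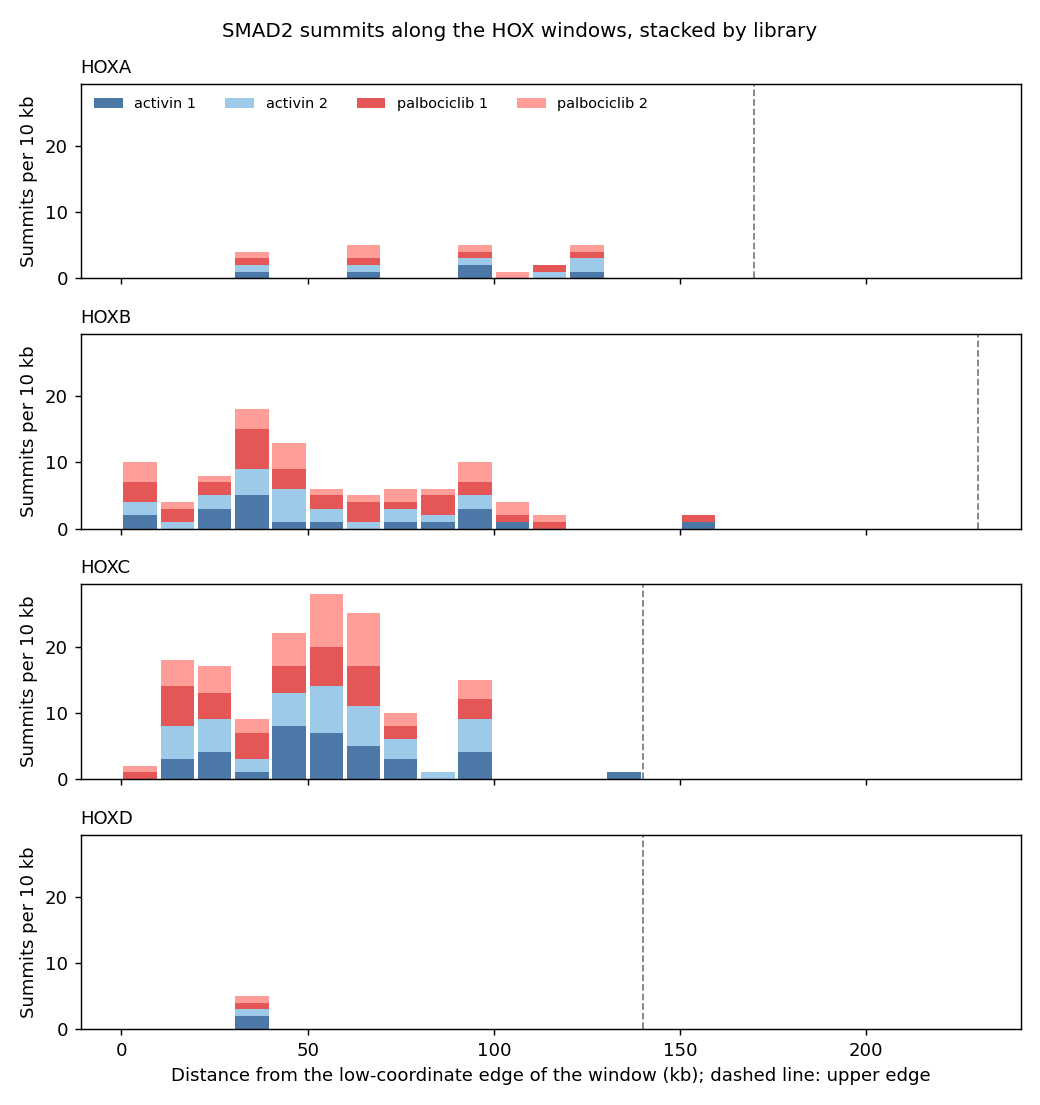
Summits per 10 kb along each HOX window, stacked over the 4 libraries, against the distance from the low-coordinate edge in kb. HOXC peaks at 28 summits between 50 and 60 kb and HOXB at 18 between 30 and 40 kb, while HOXA stays at 5 or below and HOXD has 1 filled bin.

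HOXA held a few well separated summits. Of its 17 bins of 10 kb, 11 were empty in all lists (64.7%), against 84.5% of bins in the series. The region at 27130940 to 27130962 on chromosome 7 was the strongest of HOXA in every library, with scores of 62, 39.4, 80.5 and 68.1, and its 4 summits fell within 23 bp. The next, 29.7 kb further along at 27160653 to 27160709, scored 48.1, 22.7, 47.3 and 28.4 (14.3% to 24.5% from the top). Another region, at 27190266 to 27190504, scored 17.1 and 19.9 with activin and 4.87 and 9.67 with palbociclib. No summit of any list lay in the last 45.5 kb of the window, at its HOXA13 end. HOXD held 1 region found in all libraries, at 176962332 to 176962442 on chromosome 2, and 1 further summit of activin replicate 1 with a score of 5.65 at 176961890. The shared region scored 17.02, 20.6, 22.8 and 38.3 and lay 32.3 kb from the window's edge, towards the HOXD13 end. From there to the upper edge, 107.6 kb held no summit of any list. Of the 14 HOXD bins 13 were empty in all lists (92.9%), against 84.5% of bins in the series.

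HOXA and HOXC held more summits than the windows of equal length on either side of them in every library. The window of equal length below HOXC averaged 5.5 summits over the libraries and the one above 11.25, against 37 inside. Below HOXA the mean was 0.25 and above it 2.25, against 5.5 inside. The window below HOXB averaged 5.75 summits, while the 230 kb above it held 30, 27, 27 and 32, with a mean of 29 against 23.5 inside HOXB, and exceeded the cluster in 3 of 4 libraries. Around HOXD the flanks were as sparse as the cluster, with means of 1.75 and 1.25 against 1.25. At the window edges, the outermost HOXC summit lay 8.43 kb inside the lower edge and the next outside 80.05 kb away, whereas at the upper edge summits lay 9.61 kb inside and 2.29 kb outside. Neighbouring summits of a library were closer in HOXC than in its whole list. The median spacing was 1.63 and 1.78 kb with activin and 1.59 and 1.45 kb with palbociclib in HOXC, against 7.30, 5.67, 5.16 and 3.68 kb in the lists. In HOXB it was 1.76 and 2.92 kb, and then 2.90 and 3.45 kb. In HOXA it was 24.0 to 28.4 kb.

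The share of HOX regions found in every library was close to that of the series. Chaining summits at most 200 bp apart gave 133 regions, of which 71 lay in HOXC, 49 in HOXB, 11 in HOXA and 2 in HOXD. A summit of every library was found in 24 of them (18.0%), against 20.4% of all 115321 regions. These were 14 in HOXC (19.7% of its regions), 6 in HOXB (12.2%), 3 in HOXA (27.3%) and 1 in HOXD. A single library accounted for 63 regions (47.4%), against 50.8% in the series. In HOXC, 59.5% of summits had a summit of the other library of the same treatment within 200 bp, and 54.1% had one in a library of the other treatment, pooled over pairs. The same values were 44.7% and 43.6% in HOXB and 56.9% and 54.5% over the whole lists. Within 1000 bp they rose to 94.6% and 87.2% in HOXC, against 79.1% and 76.2% over the lists. Where summits are dense, nearby matches also arise by density alone, and this part was not tested. Shared HOX regions spanned a median of 91 bp from first to last summit, against 77 bp for shared regions of the series.

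The comparison of treatments asked whether CDK4/6 inhibition altered SMAD2 binding at these clusters. In HOXC the count was 37.5 ± 2.1 with activin and 36.5 ± 0.7 with palbociclib (SD, n = 2), a difference of −1 and a log2 ratio of −0.04. HOXA counts were equal, at 5.5 ± 0.7 in both groups. HOXD had 1.5 ± 0.7 and 1.0 ± 0.0 (log2 ratio −0.585). The groups overlapped in HOXA and HOXC and met at 1 summit in HOXD. In HOXB the count was 20.5 ± 2.1 with activin and 26.5 ± 4.95 with palbociclib, 1.29 times as many (log2 ratio 0.37), and both palbociclib libraries exceeded both activin libraries. The exact two-sided permutation test gave p = 0.33 for HOXB, the smallest that 2 against 2 libraries allow, and p = 1 for the other clusters (adjusted p = 1 for all 4). Without palbociclib replicate 1, which held 30 summits, the HOXB log2 ratio was 0.17. Such a separation was common: among windows with a summit, both palbociclib lists exceeded both activin lists in 23.6% of windows of 230 kb, 21.3% of those of 170 kb and 19.5% of those of 140 kb. Set against list length, the share of all summits changed by 1.07 times in HOXB, 0.804 times in HOXC, 0.826 times in HOXA and 0.545 times in HOXD. By share the groups separated in HOXA, HOXC and HOXD, each lower in both palbociclib lists (exact two-sided permutation p = 0.33, the smallest possible; adjusted p = 0.44), and overlapped in HOXB (p = 1), so the separations by count and by share fell in different clusters. A share lower in both palbociclib lists was found in 22.1% of windows of 170 kb with a summit, 21.6% of those of 140 kb and 20.9% of those of 230 kb. The palbociclib lists were longer, which lowers the share of any window whose count stays the same.

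Regions that both libraries of 1 treatment shared and the other treatment lacked made up about the same share in the HOX windows as in the series. Both palbociclib libraries and neither activin library had a summit in 8 regions (6.02%, against 5.29% of all regions), 4 in HOXB and 4 in HOXC. The reverse held for 4 regions (3.01%, against 2.22% of all), 1 in HOXB and 3 in HOXC. The activin-only regions with the best ranks lay in HOXC, at 54411687 to 54411807 with scores of 25.3 and 23.1 and at 54374860 to 54374945 with 24.7 and 18.6. Both stood 24.0% to 28.4% from the top of the activin lists, and palbociclib summits lay 886 and 661 bp away. The palbociclib-only regions with the best ranks were weaker. In HOXB they lay at 46595083 to 46595099 (scores 8.0 and 6.11, nearest activin summit 1064 bp away), 46630413 to 46630461 (5.98 and 9.62, 960 bp) and 46690765 to 46690787 (3.90 and 6.91, 531 bp). In HOXC they lay at 54383051 to 54383103 (7.11 and 6.14, 1226 bp), 54334297 to 54334440 (8.92 and 5.63, 562 bp) and 54355165 to 54355172 (11.98 and 5.34, 582 bp). The remaining activin-only regions named by the same rule, HOXC at 54365023 and HOXB at 46625318, scored 8.07 or less. Each region named here lay within 1226 bp of a summit of the other treatment.

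Among the 24 shared HOX regions, some stood at different heights in the lists. Place was read as rank in percent of the list, and 6 regions stood nearer the top of both palbociclib lists than of either activin list, while 3 did the reverse and 15 overlapped. Over all 23476 shared regions these shares were 39.3% and 8.84%, against 25.0% and 12.5% in HOX windows. By rank number in place of percent, 4 HOX regions went each way, against 21.7% and 18.5% of all shared regions. Longer lists can lower the percent and raise the rank number of the same peak, and whether binding changed was not tested. Each region named below separated in the same direction on both scales. The widest gap was in HOXB at 46631666 to 46631881, which stood 73.3% and 96.8% from the top with activin and 26.7% and 24.7% with palbociclib, with scores of 5.56 and 2.53 against 23.3 and 23.3. HOXB at 46675263 to 46675485 followed, with 71.9% and 49.7% against 23.8% and 19.2%. In HOXC the regions at 54415564 (73.3% and 67.1% against 39.95% and 43.1%) and 54410612 (40.8% and 32.1% against 15.1% and 15.9%) stood higher with palbociclib. The opposite gap was widest in HOXA at 27190266, with 32.7% and 27.0% from the top with activin against 81.2% and 45.1% with palbociclib.

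**Figure D4:**
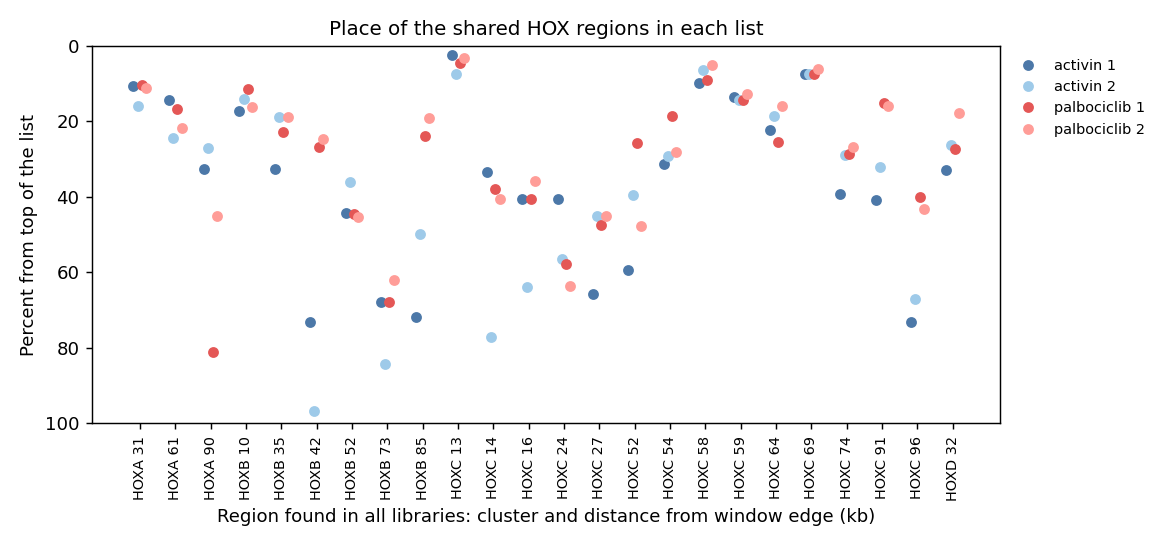
Place of each of the 24 HOX regions found in all libraries, as rank in percent of the list (0 at the top is the strongest), 1 point per library. The x axis names the cluster and the distance from the window's low-coordinate edge in kb. Regions near the top of the lists, such as HOXC at 13, 58 and 69 kb, keep their 4 points within 5.03 percentage points, and the widest spread is 72.1 points in HOXB at 42 kb.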

How the data were processed

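SMAD2-bound DNA was immunoprecipitated from T47D cells and sequenced from 4 libraries, per the labels' protocols. The genome build hg19, the aligner Bowtie 1.1.0, Picard and the peak caller MACS2 2.0.9 are named in the submitters' processing notes. Sources used here do not state filters or settings. Every list holds the summits of 1 library with a score made by the authors' peak caller and deposited as it stands, which was read as −log10 q, since its minimum of 1.31 lies just above that of a q of 0.05. Read depth is unknown. On chromosomes 1 to 22 and X there were 51535 and 54243 summits with activin and 62960 and 65207 with palbociclib, and 5, 5, 12 and 13 others were left out.

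Positions were made 1-based, counted in the fixed windows, in tiled windows of equal length and in 10-kb bins, and chained into regions at gaps of up to 200 bp. Scores were ranked within each list. The treatments were compared by a two-sided exact permutation test on the 4 library counts, adjusted by Benjamini-Hochberg over the 4 clusters. Named regions were the 5 shared ones per cluster with the best worst rank, and up to 3 of each treatment-specific kind. The code was tested on simulated data. Windows, lists and tests were chosen with earlier results of these data known. The planned motif search around summits was not run, as no hg19 genome was used here, and promoters were searched in its place. The labels do not say whether replicates were separate cultures, so p-values may measure technical spread only. Alternatives were score minimums, list lengths, chaining gaps, tilings, omission of each library and a replicate block. Python 3.11.15, numpy 2.4.6, pandas 2.3.3, scipy 1.17.1 and matplotlib 3.10.9 were used.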

Additional observations from a re-analysis of the deposited data

How the results depend on the processing

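The order of the 4 clusters by mean percentile among equal windows was kept under every alternative run. By count it was not kept in every library. In the strongest 10000 summits, palbociclib replicate 2 held 1 summit in HOXA and 1 in HOXB. Limited to windows with a summit, the percentile was 74.8 for HOXA and 35.5 for HOXD. In the strongest 10000 summits it was 87.8 for HOXB, 99.3 for HOXC and 36.7 for HOXD, which then held 0 summits, so its treatment ratio has no value there. The log2 ratio of palbociclib to activin counts turned to −0.585 in HOXB in the strongest 10000 summits, and to 0.12 and 0.14 in HOXC with a score of at least 5 and in the strongest 10000. In HOXA, equal in the main count, it was 0.15 with a score of at least 5, −0.585 in the strongest 10000 and −0.28 as a share of the list. At equal list lengths HOXB held 19 and 19 summits with activin and 25 and 19 with palbociclib, so the groups met. Leaving out each library gave −0.14 to 0.14 in HOXA, 0.17 to 0.55 in HOXB, −0.0956 to 0.0199 in HOXC (above 0 without activin replicate 2) and −1.0 to 0.0 in HOXD (0.0 without activin replicate 1). The cause of these turns was not tested. With the replicate block the log2 ratios were 0.0, 0.36, −0.04 and −0.5 for HOXA, HOXB, HOXC and HOXD. Same-numbered libraries did not deviate together over shared regions (correlation −0.00066). Regions of both palbociclib libraries alone (8) numbered 5 with a gap of 1000 bp, 34.5 with the replicate block and 11 to 28 without each library. Regions of both activin libraries alone (4) numbered 2, 0 and 2 with gaps of 500 and 1000 bp and a score of at least 5, 30 with the block and 6 to 29 without each library. The rises follow from the construction, since a treatment left with 1 library needs a summit there only. The choice between percent and rank number for shared regions was made after seeing the data. Unknown read depth limits every count.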
